A study of Mus musculus with 3 samples.

Results

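Of the 48 genes of the CC and CXC chemokine families and their receptors measured here, the neutrophil-attracting chemokine genes Cxcl1, Cxcl2 and Cxcl5 stood at their highest level in induced astrocytes (iAs). Relative to mouse embryonic fibroblasts (MEFs), 11 of 32 ligands were lower by at least 1.5-fold in iAs, 1 of them between dim values, and 16 in primary astrocytes (pAs), 3 of them between dim values. The share of all genes that lay this far below MEFs was 10.0% in iAs and 11% in pAs. The members were taken by name, as every gene whose symbol in the platform annotation begins with Ccl, Cxcl, Ccr or Cxcr followed by a digit and that has a probe set carrying no other symbol. They were 32 ligands and 16 receptors of 22180 genes with a symbol of their own. RNA of every cell type was hybridised to a single Affymetrix array (Mouse Gene 2.0 ST), so no difference carries a test or an error. The iAs were MEFs carrying a GFAP-GFP reporter that had been treated for 25 days with VCSTO (the small molecules OAC1, tranylcypromine, SB-431542, CHIR99021 and valproic acid) and then sorted for GFP, so that they are the reporter-positive fraction of the treated culture. The pAs were cultures from the cortex of mice at postnatal day 2, for which no sort is described, and the MEFs came from E13.5 embryos. The treatment text of the labels names VCSTO for all samples, but it is ascribed here to the iAs alone, whose source is given as compound-treated MEFs. No sex or strain is given for any group, nor whether the pAs and the MEFs of these arrays carried the reporter.

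Chemokines are small secreted proteins that bind heparan sulfate on cell surfaces and guide leukocytes along their gradients. Their names follow the spacing of the first conserved cysteines, adjacent in CC chemokines and parted by 1 residue in CXC chemokines, and they signal through receptors coupled to inhibitory G proteins. Fibroblasts and astrocytes are known as producers of chemokines when the cytokines of inflammation reach them, through transcription factors of the NF-kappaB family, whereas most of the receptors are known from leukocytes. In the brain, Cxcl12 and its receptor Cxcr4 also guide migrating precursor cells, and Ccl2 from astrocytes attracts monocytes.

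Shown first are the stretches upstream of those CXC genes on chromosome 5 in which the NF-kappaB consensus was found. Cxcl9, Cxcl13 and Cxcl15 of this chromosome had a promoter without a match, and none was found for Cxcl5 or Cxcl11. The largest differences between iAs and pAs among the members were those of Cxcl5, Cxcl2 and Cxcl1. Cxcl3 and Cxcl10 differed by less than 1.5-fold between iAs and pAs. The sequences are the 250 bases before the start of transcription in RefSeq (build GRCm38.p6), written 5′ to 3′ along the gene, with matches to the NF-kappaB consensus on either strand in capitals. Cxcl1 lies at chr5:90890995-90891244 (plus strand), Cxcl2 at chr5:90903649-90903898 (plus strand), Cxcl3 at chr5:90785851-90786100 (plus strand) and Cxcl10 at chr5:92348890-92349139 (minus strand).
Cxcl1: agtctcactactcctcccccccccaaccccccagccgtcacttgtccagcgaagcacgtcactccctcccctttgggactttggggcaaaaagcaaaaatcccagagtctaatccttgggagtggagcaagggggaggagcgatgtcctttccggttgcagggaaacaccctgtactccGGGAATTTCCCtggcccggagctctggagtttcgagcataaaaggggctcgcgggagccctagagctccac
Cxcl2: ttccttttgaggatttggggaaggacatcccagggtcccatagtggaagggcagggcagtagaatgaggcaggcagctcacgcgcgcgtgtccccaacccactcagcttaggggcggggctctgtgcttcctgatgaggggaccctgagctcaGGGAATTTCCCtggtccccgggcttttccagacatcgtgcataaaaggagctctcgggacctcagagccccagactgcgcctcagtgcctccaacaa
Cxcl3: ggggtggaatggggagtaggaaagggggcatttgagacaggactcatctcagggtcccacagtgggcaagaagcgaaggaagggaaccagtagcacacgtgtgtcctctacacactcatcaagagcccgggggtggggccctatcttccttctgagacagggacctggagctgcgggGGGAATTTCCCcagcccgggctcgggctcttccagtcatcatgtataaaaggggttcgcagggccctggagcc
Cxcl10: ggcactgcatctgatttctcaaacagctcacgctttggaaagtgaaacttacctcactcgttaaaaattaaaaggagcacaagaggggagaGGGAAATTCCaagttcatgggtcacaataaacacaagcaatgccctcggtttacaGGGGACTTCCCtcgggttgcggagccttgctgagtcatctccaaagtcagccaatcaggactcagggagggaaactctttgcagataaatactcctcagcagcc

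Cxcl1, Cxcl2 and Cxcl3 hold the same matched stretch, GGGAATTTCCC, beginning 71, 97 and 73 bases before the start. Cxcl10 holds 2 matched stretches, beginning 159 and 104 bases before the start, and also GAAA followed after 2 bases by GAAA, an element of interferon-response sites, 213 bases before it. Promoters were found for 34 of the 48 members, in 38 windows. The NF-kappaB consensus lay in 10 of these windows, against 7.25% of all 32851 promoter windows, and was also found in Ccl1, Ccl9, Ccl20, Ccr1, Ccr3 and Ccr6. The AP-1 site TGANTCA lay in 5 member windows, those of Ccl9, Ccl27a, Ccr3, Ccr4 and Cxcl10, against 6.75% of all windows, and the GAAA element in 2, those of Cxcl10 and Cxcl14, against 2.98%. A match is a description of the letters and does not show binding. Genes with the same stretch did not lie on the same side of the array medians, since Cxcl3 was below the median of every array while Cxcl1 and Cxcl2 were above it.

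All levels below are log2 values as the authors deposited them, normalized by RMA. They carry no detection call, and the median of all 41345 probe sets of an array, 6.59 for iAs, 6.57 for pAs and 6.53 for MEFs, serves as the line that marks dim genes. Of the 48 members, 23 lay at or above this line in iAs, 22 in pAs and 28 in MEFs. Among all genes with a symbol of their own the share was 60.0% in iAs, 60.1% in pAs and 61.7% in MEFs, against 47.9%, 45.8% and 58.3% of the members. In iAs 19 of 32 ligands and 4 of 16 receptors reached the median, in pAs 18 and 4, and in MEFs 21 and 7. In all, 19 members reached it on every array, 11 on some and 18 on none. On 11 members, 22.9% of them, the 3 arrays hold identical values, as they do for 20.3% of all genes, and 10 of these 11 are among the 18 dim members.

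A difference counted as higher or lower from 1.5-fold, the threshold the study set for its probe sets. Relative to MEFs, 4 members were higher and 11 lower in iAs, where 8.84% and 10.0% of all genes passed the threshold, against 8.33% and 22.9% of the members. In pAs, 2 members were higher and 17 lower than in MEFs, which is 4.17% and 35.4%, against 12% and 11% of all genes. Between the astrocytes, iAs exceeded pAs in 8 members and fell short of them in 5, which is 16.7% and 10.4%, against 8.67% and 11.1% of all genes. All 4 members higher in iAs than in MEFs and all 11 lower ones were ligands, and no receptor passed the threshold between iAs and MEFs. The median difference of the members was 0.00 for iAs minus MEFs, -0.27 for pAs minus MEFs and 0.06 for iAs minus pAs, and that of all genes was 0.00 in each. The 2 comparisons with MEFs share the MEF array, so a low or high value there enters both. A fold written with "at least" was counted from the array's median, because the dimmer of its levels fell below that line.

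**Figure D1:**
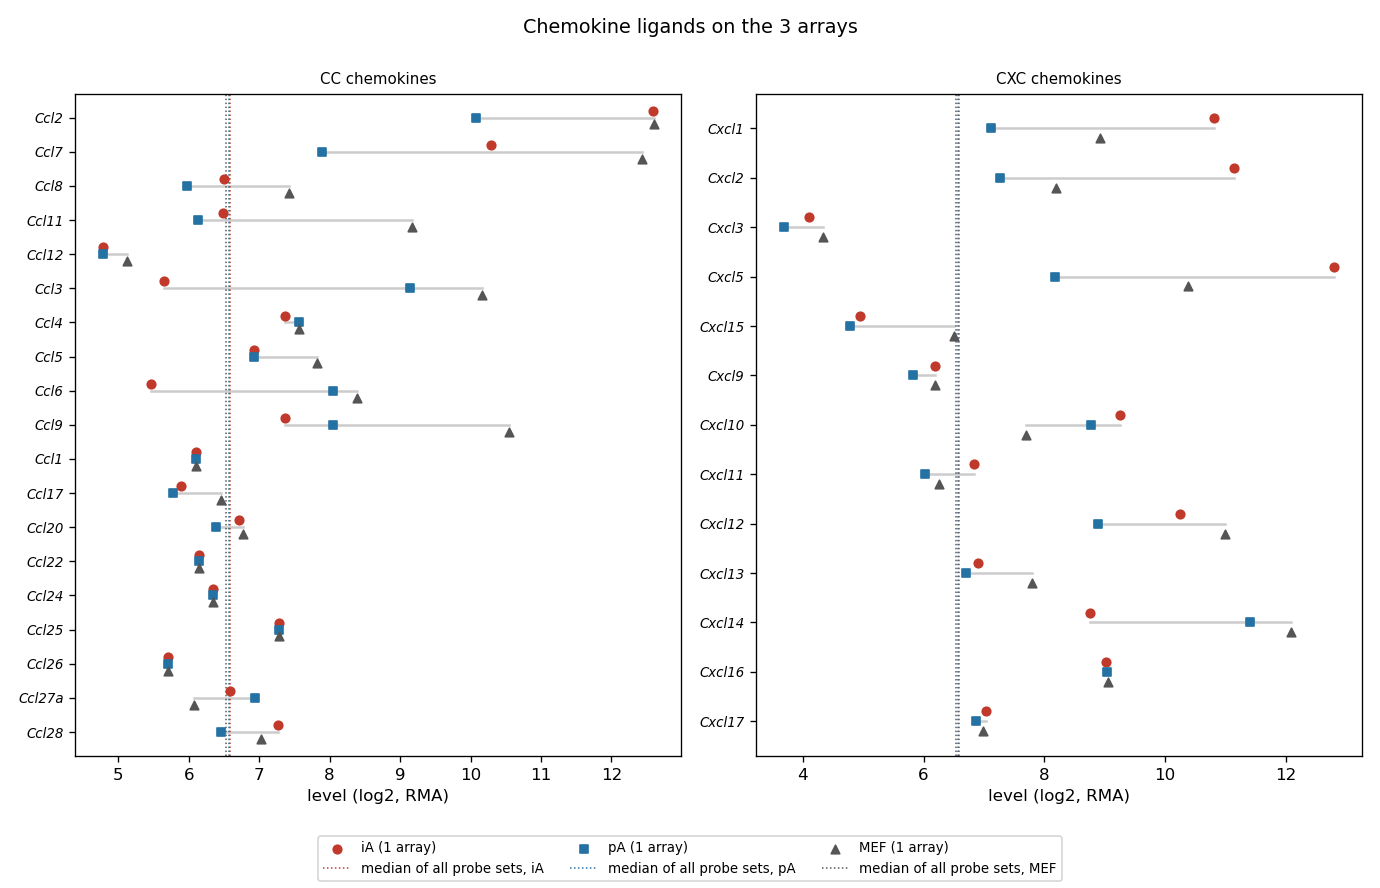
Log2 level (RMA) of the 32 chemokine ligands on the 3 arrays, 1 point per array, with dotted lines at the medians of all probe sets and a grey line over the range of each gene. Cxcl1, Cxcl2 and Cxcl5 stand highest in iAs and lowest in pAs, and Ccl3 and Ccl6 lie below the median in iAs alone.

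Among the neutrophil-attracting CXC chemokines, of which Cxcl1, Cxcl2 and Cxcl5 act on Cxcr2, Cxcl5 stood at 12.81 in iAs, 8.17 in pAs and 10.39 in MEFs. It was 5.35-fold higher in iAs and 4.65-fold lower in pAs than in MEFs, and 24.9-fold higher in iAs than in pAs. Cxcl1, known in mice as KC, was at 10.82 in iAs, 7.11 in pAs and 8.92 in MEFs, above the MEF level by 3.72-fold in iAs and below it by 3.50-fold in pAs. Cxcl2, also called MIP-2, was at 11.15 in iAs, 7.27 in pAs and 8.19 in MEFs, 7.77-fold higher in iAs and 1.90-fold lower in pAs. All of these lay above the medians on every array, with the order iAs, MEFs, pAs from high to low, and the differences between iAs and pAs were 13.0-fold for Cxcl1 and 14.7-fold for Cxcl2. The same group held dim members. Cxcl3 was at 4.10 in iAs, 3.68 in pAs and 4.34 in MEFs, and Cxcl15, lungkine, at 4.94 in iAs, 4.79 in pAs and 6.50 in MEFs, all below the medians, so that the calls of Cxcl15 as lower in both and of Cxcl3 as lower in pAs rest on dim values. Genes of 1 family can share probe sequence, and how far Cxcl1, Cxcl2 and Cxcl3 do so on this array was not tested.

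Along chromosome 5 these genes lie in the order Cxcl5, Ppbp, Pf4, Cxcl3, Cxcl15, Cxcl1, Cxcl2, with no other coding gene between neighbours in the RefSeq table. Ppbp and Pf4 are CXC chemokines of platelets whose symbols fall outside the naming rule. Ppbp had 7.75 in iAs, 5.87 in pAs and 8.66 in MEFs, which is lower than in MEFs by 1.88-fold in iAs and by at least 4.27-fold in pAs. Pf4 had 6.29 in iAs, 6.25 in pAs and 7.89 in MEFs, lower than in MEFs by at least 2.47-fold in iAs and by at least 2.51-fold in pAs. In iAs the row of 7 genes thus held 3 that were higher, 3 lower and 1 within the threshold relative to MEFs. The higher ones lay at its ends. In pAs all 7 were lower. Cxcl15 in both, and Cxcl3 in pAs, were counted as lower on dim values. Among all genes, the share above the MEF level by the threshold was 8.84% for iAs and 12% for pAs. The share below it was 10.0% for iAs and 11% for pAs.

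**Figure D2:**
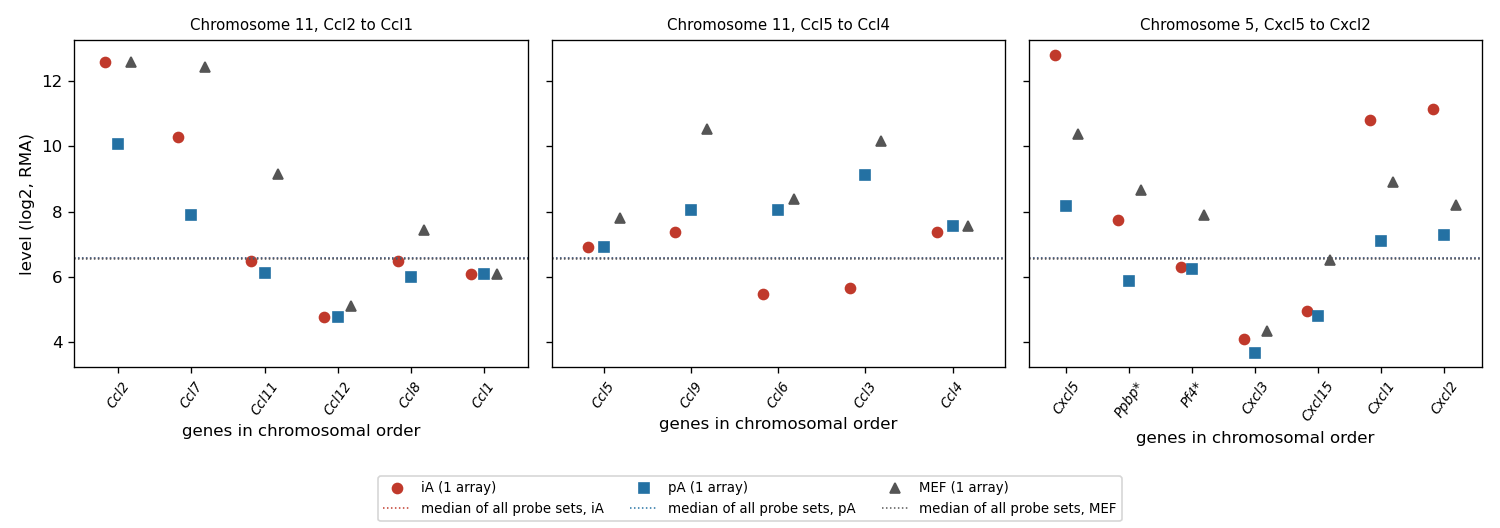
Log2 level (RMA) of neighbouring chemokine genes in chromosomal order, 1 point per array and gene, with dotted lines at the array medians. An asterisk marks Ppbp and Pf4, which are no members. In the group on chromosome 5, iAs lie above MEFs at Cxcl5, Cxcl1 and Cxcl2 and below them at Ppbp and Pf4, and in the second group on chromosome 11 iAs lie below the median at Ccl6 and Ccl3.

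Of the 3 CXC chemokines induced by interferon, which attract T cells through Cxcr3, only Cxcl10 lay above the median on all arrays. It read 9.26 in iAs, 8.77 in pAs and 7.70 in MEFs and was higher than in MEFs by 2.94-fold in iAs and by 2.10-fold in pAs. Cxcl11 reached the median in iAs alone, with 6.83 in iAs, 6.02 in pAs and 6.25 in MEFs. The difference between iAs and MEFs, 0.58 on the log2 scale, fell short of 1.5-fold, and between iAs and pAs it was at least 1.20-fold counted from the median, where the deposited values differ 1.76-fold. Cxcl9 was below the median on every array, at 6.19 in iAs, 5.83 in pAs and 6.19 in MEFs.

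Cxcl14, a chemokine of fibroblasts and epithelia without a settled receptor, showed the largest difference among the remaining CXC ligands. It had 8.75 in iAs, 11.40 in pAs and 12.08 in MEFs, lower than in MEFs by 10.04-fold in iAs and by 1.60-fold in pAs, and 6.27-fold lower in iAs than in pAs. Cxcl12, the ligand of Cxcr4 and of the scavenging receptor Ackr3, ran the other way between the astrocytes. Its levels were 10.26 in iAs, 8.88 in pAs and 11.00 in MEFs, so that it was lower than in MEFs by 1.67-fold in iAs and by 4.33-fold in pAs and 2.59-fold higher in iAs than in pAs. Cxcl13, the chemokine that draws B cells to follicles, was at 6.90 in iAs, 6.70 in pAs and 7.80 in MEFs, lower than in MEFs by 1.87-fold in iAs and by 2.15-fold in pAs. Cxcl16, a chemokine with a membrane anchor, had nearly the same level on the 3 arrays, at 9.03 in iAs, 9.05 in pAs and 9.05 in MEFs, and Cxcl17 was at 7.03 in iAs, 6.86 in pAs and 6.99 in MEFs, within the threshold.

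The CC chemokines Ccl2, Ccl7, Ccl8, Ccl11 and Ccl12 were read as 1 group of 5, not all of which act mainly on monocytes. In iAs 3 of them (60%), Ccl7, Ccl8 and Ccl11, were below the MEF level by the threshold, against 10.0% of all genes. In pAs 4 (80%), these and Ccl2, were below it, against 11% of all genes. Ccl2, the main ligand of Ccr2, stood at 12.58 in iAs, 10.08 in pAs and 12.60 in MEFs. It was 5.73-fold lower in pAs than in MEFs, with a difference of -0.01 on the log2 scale between iAs and MEFs, and 5.67-fold higher in iAs than in pAs. Ccl7, its neighbour on chromosome 11, had 10.29 in iAs, 7.89 in pAs and 12.44 in MEFs, lower than in MEFs by 4.42-fold in iAs and by 23.4-fold in pAs and 5.29-fold higher in iAs than in pAs. Ccl7 in pAs was thus the largest deposited difference of any member from MEFs. Ccl11, eotaxin, which acts on Ccr3 of eosinophils, was above the median in MEFs alone, with 6.48 in iAs, 6.13 in pAs and 9.17 in MEFs, lower than in MEFs by at least 5.98-fold in iAs and by at least 6.07-fold in pAs. Ccl8 shared this pattern with 6.49 in iAs, 5.98 in pAs and 7.42 in MEFs, lower than in MEFs by at least 1.78-fold in iAs and by at least 1.81-fold in pAs. Ccl12, a mouse ligand of Ccr2, lay below the median everywhere, at 4.78 in iAs, 4.78 in pAs and 5.12 in MEFs. In chromosomal order, Ccl2, Ccl7, Ccl11, Ccl12, Ccl8 and Ccl1, iAs had 3 of the 6 below the MEF level by the threshold, pAs had 4, and none was above it.

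Ccl3, Ccl6 and Ccl9, known as products of macrophages, were lower in iAs than on either other array. Ccl3, also called MIP-1alpha, stood at 5.65 in iAs, 9.13 in pAs and 10.16 in MEFs. That is lower than in MEFs by at least 11.9-fold in iAs and by 2.04-fold in pAs, and lower in iAs than in pAs by at least 5.84-fold. Ccl6, a ligand of Ccr1 in mice, had 5.47 in iAs, 8.05 in pAs and 8.38 in MEFs, in iAs at least 3.47-fold below MEFs and at least 2.76-fold below pAs, with a log2 difference of -0.33 for pAs minus MEFs. Ccl9, another mouse ligand of Ccr1, was at 7.37 in iAs, 8.05 in pAs and 10.55 in MEFs, lower than in MEFs by 9.08-fold in iAs and by 5.65-fold in pAs. Ccl5, RANTES, held the same value of 6.92 in iAs and pAs against 7.82 in MEFs, 1.86-fold lower in both. Ccl4, next to Ccl3 in the chromosomal row Ccl5, Ccl9, Ccl6, Ccl3, Ccl4, did not share its difference, with 7.36 in iAs, 7.57 in pAs and 7.57 in MEFs.

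Some markers of microglia and macrophages were also lower in iAs. Of 15 such markers, iAs had 10 (66.7%) at least 1.5-fold below the MEF level and none that far above it, against 10.0% and 8.84% of all genes. In pAs, 3 (20%) were that far below the MEF level and 1, C1qb (6.67%), above it, against 11% and 12% of all genes. Those within the threshold in iAs were Aif1, Cx3cr1, P2ry12, C1qa and C1qc. The summed linear level of all 15 markers was 2430 in iAs, 5105 in pAs and 6277 in MEFs. Of the 15, 7 lay below the array's median in iAs, 2 in pAs and 1 in MEFs. Fcer1g, the gamma chain of Fc receptors, had 6.78 in iAs, 9.47 in pAs and 10.04 in MEFs, Tyrobp, its signalling relative, 6.39 in iAs, 8.88 in pAs and 9.08 in MEFs, and Cd68, a lysosomal protein of macrophages, 9.02 in iAs, 9.98 in pAs and 10.77 in MEFs. Of the 15 markers, 8 reached the median on every array, among them Trem2, P2ry12, Cx3cr1 and Csf1r. Csf1r was at 7.51 in iAs, 7.89 in pAs and 8.60 in MEFs. Aif1 alone lay below the median on every array, at 6.42 in iAs, 6.29 in pAs and 6.42 in MEFs, and Ptprc (CD45) was at 5.64 in iAs, 6.14 in pAs and 6.58 in MEFs. The part of such cells in the levels of Ccl3, Ccl6 and Ccl9 was not tested. In bulk RNA, fewer cells of a type and less RNA per cell cannot be told apart.

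**Figure D3:**
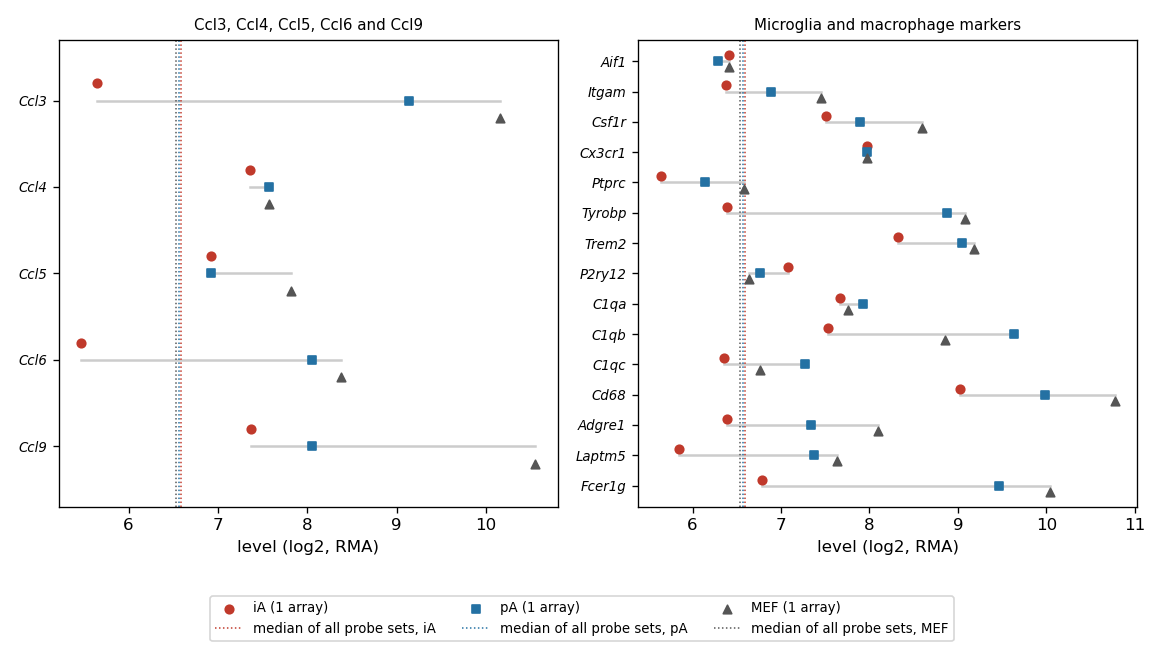
Log2 level (RMA) of the 5 CC chemokines of the macrophage inflammatory protein kind (left) and of 15 markers of microglia and macrophages (right), 1 point per array, with dotted lines at the array medians. Ccl3, Ccl6, Tyrobp and Laptm5 lie below the median in iAs and above it in pAs and MEFs.

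Of the other 9 CC ligands, 5 lay below the median on every array, and none differed by 1.5-fold between iAs and MEFs. Ccl28, a mucosal chemokine that acts on Ccr10 and Ccr3, had 7.27 in iAs, 6.45 in pAs and 7.02 in MEFs and was higher in iAs than in pAs by at least 1.63-fold. Ccl20, the ligand of Ccr6, was at 6.72 in iAs, 6.39 in pAs and 6.76 in MEFs, and Ccl25, the ligand of Ccr9, at 7.28 on each array. Ccl27a, a skin chemokine, was 1.83-fold higher in pAs than in MEFs as deposited and at least 1.33-fold higher counted from the median, with 6.59 in iAs, 6.94 in pAs and 6.07 in MEFs. It is the one member with 2 probe sets, and they differ. One read 7.51 in iAs, 8.17 in pAs and 6.81 in MEFs and the other 5.67 in iAs, 5.71 in pAs and 5.32 in MEFs. The values of the first recur in 2 probe sets that carry several symbols, so copies of Ccl27a cannot be told apart there. Ccl1, Ccl17, Ccl22, Ccl24 and Ccl26 lay below the median on every array, and of these only Ccl17 passed the threshold against MEFs, in pAs, with 5.90 in iAs, 5.78 in pAs and 6.46 in MEFs.

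**Figure D4:**
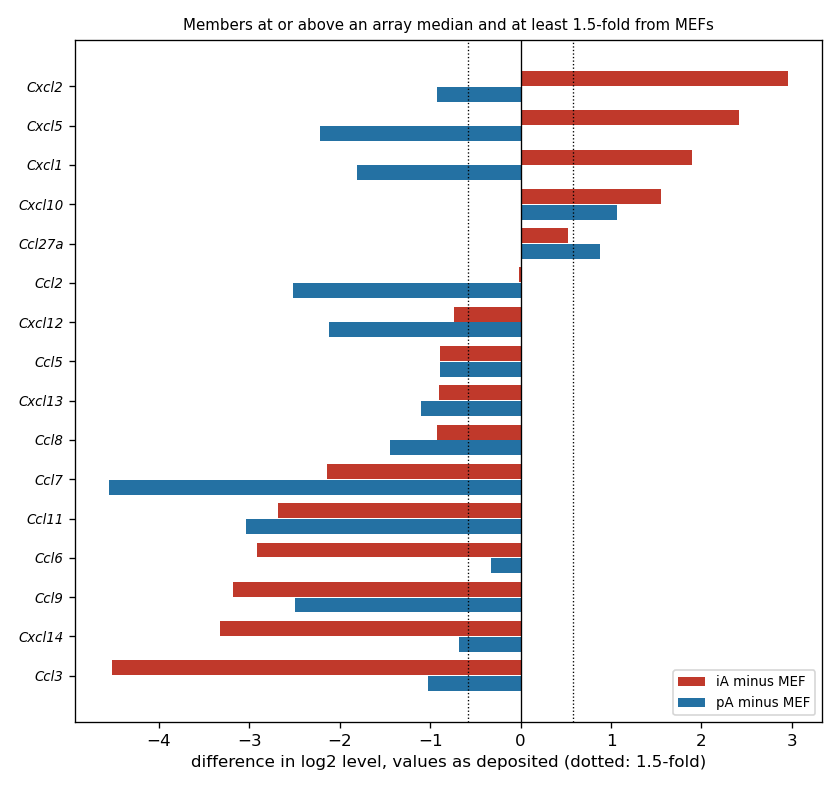
Difference in log2 level from MEFs, as deposited, for iAs (upper bar) and pAs (lower bar) of the 16 members that reached the median on some array and differed by at least 1.5-fold in either, with dotted lines at 1.5-fold. Bars of Cxcl1, Cxcl2 and Cxcl5 point opposite ways, Cxcl10 and Ccl27a point up in both, and Ccl2 has a bar for pAs with almost none for iAs.

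Receptors were mostly dim and level across the arrays. Cxcr4, the receptor of Cxcl12, lay above the median on every array, at 8.07 in iAs, 8.78 in pAs and 8.25 in MEFs. It was 1.64-fold lower in iAs than in pAs, the only receptor to pass the threshold between these, and the differences from MEFs were -0.19 in iAs and 0.52 in pAs on the log2 scale. Cxcr2, on which Cxcl1, Cxcl2 and Cxcl5 act, had 6.87 in iAs, 6.73 in pAs and 6.87 in MEFs, and Cxcr3, the receptor of Cxcl10, had 6.78 in iAs, 6.77 in pAs and 6.77 in MEFs. Ccr7, the receptor of lymph node homing, was at 7.20 in iAs, 6.88 in pAs and 6.88 in MEFs. These lay just above the medians, and none differed by 1.5-fold. Cxcr1, Cxcr5 and Ccr10 reached the median in MEFs alone, by narrow margins. Cxcr1 was at 6.56 in iAs, 6.51 in pAs and 6.56 in MEFs, Ccr10 at 6.57 in iAs, 6.55 in pAs and 6.55 in MEFs, and Cxcr5 at 6.58 in iAs, 6.52 in pAs and 6.82 in MEFs.

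Below the median on every array lay Ccr1, Ccr1l1, Ccr2, Ccr3, Ccr4, Ccr6, Ccr8, Ccr9 and Cxcr6. Ccr2, the receptor of Ccl2 and Ccl7, held the value of 4.86 on each array, and Ccr1, the receptor of Ccl3, Ccl6 and Ccl9, had 5.56 in iAs, 5.48 in pAs and 6.11 in MEFs, which gave the only call among receptors against MEFs, 1.55-fold lower in pAs between dim values. Over all 18 members that were dim on every array, levels ran between 3.55 and 6.50 and the largest range of a gene over the arrays was 1.72. Outside the naming rule, the scavenging receptor Ackr3 had 8.53 in iAs, 7.07 in pAs and 8.21 in MEFs and was 2.21-fold lower in pAs than in MEFs, as was its ligand Cxcl12 at 4.33-fold. Cx3cl1, the membrane-bound chemokine of neurons, stood at 9.14 in iAs, 9.21 in pAs and 9.30 in MEFs, and its microglial receptor Cx3cr1 at 7.98 on each array. Of 11 family members outside the rule, none was higher in iAs or pAs than in MEFs, against 8.84% and 12% of all genes. The lower ones numbered 2 in iAs (18.2%, against 10.0% of all genes) and 3 in pAs (27.3%, against 11%).

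**Figure D5:**
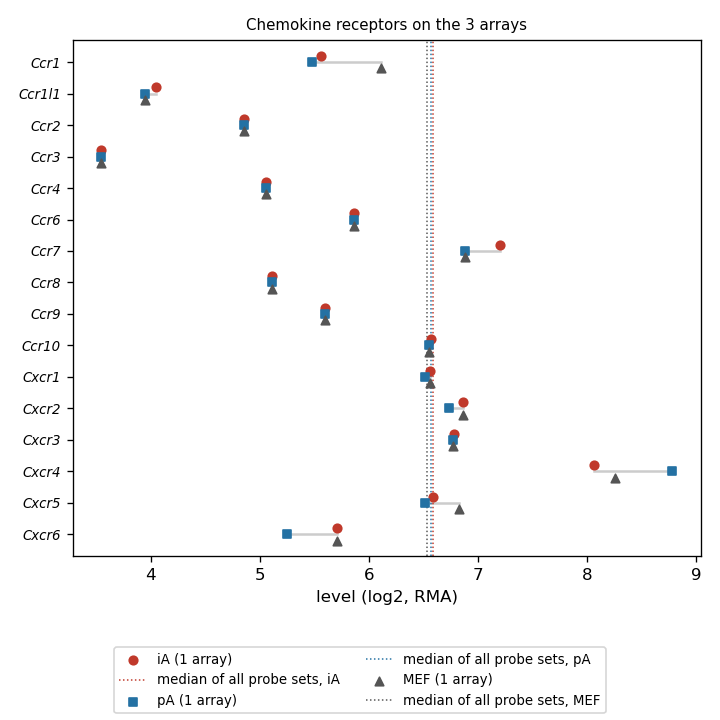
Log2 level (RMA) of the 16 chemokine receptors on the 3 arrays, 1 point per array, with dotted lines at the medians of all probe sets and a grey line over the range of each gene. Cxcr4 lies above the medians on all arrays and highest in pAs, and 9 receptors lie below the medians on all of them.

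Genes around the chemokine pathway were read from lists, whose counts of genes at least 1.5-fold above and below the MEF level stand against 8.84% and 10.0% of all genes in iAs and 12% and 11% in pAs. Of 19 measured genes of the NF-kappaB pathway, all above the medians, 1 (5.26%) was above in iAs and none below, and 2 (10.5%) were above and 4 (21.1%) below in pAs, so that the counts above lay near the share of all genes or under it. Ikbkg, the regulatory subunit of the IkappaB kinase, had 9.82 in iAs, 9.57 in pAs and 8.90 in MEFs, higher than in MEFs by 1.89-fold in iAs and by 1.59-fold in pAs. Traf1, an adaptor of TNF receptors, was at 6.99 in iAs, 9.23 in pAs and 6.93 in MEFs, 4.92-fold higher in pAs. Birc3, a ubiquitin ligase of TNF signalling, and Bcl3, a nuclear partner of NF-kappaB, were 1.67-fold and 1.77-fold lower in pAs, with log2 differences of 0.34 and 0.22 in iAs. Of 22 inflammatory cytokines and receptors, iAs had 3 (13.6%) above and 2 (9.09%) below the MEF level by the threshold, which is near the share of all genes, and pAs had none above and 4 (18.2%) below it. Il6, the cytokine interleukin 6, was at 8.24 in iAs, 4.71 in pAs and 8.14 in MEFs, at least 2.99-fold lower in pAs. Tlr4, the receptor of lipopolysaccharide, had 9.50 in iAs, 7.47 in pAs and 7.54 in MEFs and was 3.89-fold higher in iAs. Il1r1, the receptor of interleukin 1, had 9.01 in iAs, 8.73 in pAs and 11.36 in MEFs, lower than in MEFs by 5.09-fold in iAs and by 6.20-fold in pAs, and Tnfrsf1b, a TNF receptor, had 9.89 in iAs, 7.71 in pAs and 9.32 in MEFs, 3.07-fold lower in pAs.

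Of 17 genes of the interferon response, to which Cxcl10 belongs by its known regulation, iAs had 3 (17.6%) and pAs 5 (29.4%) at least 1.5-fold above the MEF level, and none was 1.5-fold below it. The median difference of the list was -0.07 in iAs and 0.18 in pAs. Ifit2, an inhibitor of viral translation, had 8.09 in iAs, 9.31 in pAs and 7.27 in MEFs, higher than in MEFs by 1.77-fold in iAs and by 4.13-fold in pAs, and Gbp3, a GTPase of host defence, 7.24 in iAs, 7.38 in pAs and 5.97 in MEFs, higher than in MEFs by at least 1.63-fold in iAs and by at least 1.79-fold in pAs. Oasl2 was higher than in MEFs by 1.51-fold in iAs and by 1.58-fold in pAs. Usp18 was 1.63-fold higher in pAs, with a log2 difference of -0.57 in iAs, within the threshold. Of 22 signalling genes downstream of the receptors, iAs had 6 (27.3%) above and 4 (18.2%) below the MEF level by the threshold, and pAs 2 (9.09%) above and 3 (13.6%) below it. Arrb1, the arrestin that stops receptor signalling, had 10.48 in iAs, 9.73 in pAs and 8.99 in MEFs, higher than in MEFs by 2.81-fold in iAs and by 1.68-fold in pAs. Rac2, a GTPase of leukocyte movement, had 7.85 in iAs, 8.87 in pAs and 9.13 in MEFs, 2.43-fold lower in iAs.

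Of 18 genes that trim chemokines or present them on heparan sulfate, iAs had 4 (22.2%) above and 7 (38.9%) below the MEF level by the threshold, and pAs 3 (16.7%) above and 11 (61.1%) below it. These counts include calls between dim values, for Mmp1a as higher in iAs and for Dpp4 as lower in both. Mmp2, a protease that cleaves Cxcl12 and Ccl7, had 12.59 in iAs, 8.93 in pAs and 12.68 in MEFs, 13.4-fold lower in pAs, and Mmp13, a collagenase, 8.82 in iAs, 5.59 in pAs and 8.93 in MEFs, at least 5.15-fold lower in pAs. Gpc3, a glypican that carries heparan sulfate, had 10.36 in iAs, 6.61 in pAs and 10.80 in MEFs, 18.3-fold lower in pAs, and Mmp14, the activator of Mmp2, was lower than in MEFs by 1.56-fold in iAs and by 3.80-fold in pAs. The median log2 differences from MEFs of these 5 lists ran between -0.17 and 0.14 in iAs, and between -0.76 and 0.18 in pAs.

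The labelled cell types were checked on marker lists. Of 12 astrocyte markers, iAs had 4 (33.3%) above and 5 (41.7%) below the MEF level by the threshold, and pAs 11 (91.7%) above and none below it. The shares of all genes were 8.84% above and 10.0% below in iAs, and 12% above and 11% below in pAs. Gfap, whose promoter drives the sorted reporter, stood at 11.72 in iAs, 13.26 in pAs and 7.80 in MEFs, and Aqp4, the water channel of astrocytes, at 5.82 in iAs, 12.20 in pAs and 6.80 in MEFs. S100b, a calcium-binding protein of astrocytes, had 10.31 in iAs, 7.61 in pAs and 6.40 in MEFs, in iAs at least 13.7-fold above MEFs and 6.50-fold above pAs. Slc1a2, the glutamate transporter GLT-1, was below the median in iAs and MEFs, at 5.96 in iAs, 8.57 in pAs and 5.96 in MEFs. Of 12 fibroblast markers, 9 (75%) were lower and 1 (8.33%) higher in iAs and 11 (91.7%) lower in pAs. Of 11 lymphocyte and neutrophil markers, 9 lay below the median on every array, among them the neutrophil genes S100a9, at 6.32 on each array, Ly6g and Mpo. The neutrophil protein gene S100a8 had 8.20 in iAs, 4.98 in pAs and 5.90 in MEFs. Of 8 endothelial markers, 5 lay below the median on every array, and Kdr, a VEGF receptor, had 8.79 in iAs, 7.45 in pAs and 7.50 in MEFs. How far any such cells contributed to the levels of the chemokines was not tested.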

How the data were processed

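Total RNA of 3 samples, 1 each of iAs, pAs and MEFs, was hybridised to Mouse Gene 2.0 ST arrays. The deposited values are on the log2 scale, 1 per probe set, and were normalized by the authors with RMA in Partek Genomics Suite, a procedure that corrects background, makes the arrays' distributions equal and summarizes the probes of a set. The processing notes also name MAS5, with no version for any tool. RMA compares arrays with each other, so a change of all genes in 1 direction is not visible, and weak signals are compressed.

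Of 41345 probe sets, 23521 carry 1 symbol in the platform annotation, and probe sets with several symbols were left out. Probe sets of a gene were averaged, giving 22180 genes. The 48 members, all of them matched by Entrez ID to RefSeq (GRCm38.p6, used for names, chromosomal order and promoters), come from 49 probe sets. Differences of log2 values were taken between the arrays, with a call at 1.5-fold, in Python 3.11.15 with numpy 2.4.6, pandas 2.3.3 and matplotlib 3.10.9. Groups hold 1 array each, which limits the precision and allows no test. The members, the gene lists and the roles were chosen with earlier results of these data known. Named are all members that reached the median of some array. From the lists, genes were drawn from the up to 4 with the largest difference from MEFs. Some of these were left out, among them Gng2, Jak2, Aldoc and the fibroblast genes Dcn, Lum, Pdgfra and Postn. Further markers of cell types and Cx3cl1 and Cx3cr1 were singled out after their values were seen. The step that makes the calls was tested on simulated data, which gives no error for the measured differences. The alternatives were another normalization, centring, an offset of 32 on the linear scale, other fold thresholds, a filter on dim genes, the brightest or each single probe set and another median.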

Additional observations from a re-analysis of the deposited data

Results flagged for a closer look

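Cxcl1, Cxcl2 and Cxcl5 differed from MEFs by at least 1.5-fold in opposite directions, higher in iAs and lower in pAs. The log2 differences of iAs minus pAs were 3.71 for Cxcl1, 3.88 for Cxcl2 and 4.64 for Cxcl5. With 1 array per cell type, the difference between the astrocytes was not tested.

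Probe sets that carry several symbols enter no comparison above. Of 11 such probe sets of the Ccl27 kind, all 11 exceeded the MEF level by 1.5-fold or more in pAs, with log2 differences between 0.64 and 2.45. In iAs 2 did so, both with a difference of 0.70. The value of 2.45 belongs to a probe set that was dim in MEFs, at 6.19 against the array's median of 6.53. Counted from that median, this difference would be smaller. The 13 probe sets of the Ccl19 kind and the 9 of the Ccl21 kind differed between pAs and MEFs by log2 values of 0 to 0.04 and of -0.11 to 0. Some pairs of the Ccl27 probe sets hold the same values as each other on every array, so they are not separate measurements.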

How the results depend on the processing

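The counts of members higher and lower in each comparison, the counts at or above the array median and the median differences were recomputed under 9 planned settings. At a threshold of 2-fold, 7 members were lower in iAs than in MEFs, pAs had 1 above and 11 below the MEF level, and 3 were lower in iAs than in pAs. At a log2 difference of 0.32, 15 members were higher in iAs than in pAs. With the median of genes in place of that of all probe sets, 15 members reached it in iAs and 14 in pAs. The other counts stayed within 1.5 times of their value in each setting run for them. The median difference of pAs minus MEFs lay between -0.38 and -0.16. For the 23 members with a difference of at least 1.5-fold in some comparison, 468 differences were recomputed. Of these, 432 kept their side of the threshold, 0 reversed and 18 newly passed it, 12 of them at the looser log2 threshold of 0.32. Calls were lost for 18, 15 of them at 2-fold. The other 3 lost calls came with an offset of 32, for the dim Ccl17, Ccr1 and Cxcl3 in pAs at -0.47, -0.40 and -0.22, which left 14 members lower in pAs than in MEFs. Those newly past it include Ccl28 in pAs against MEFs at -0.60 after quantile normalization and -0.64 after centring, the dim Ccl17 and Ccr1 in iAs at -0.63 and -0.62 after quantile normalization, and Ccl27a in iAs against MEFs at 0.70 with its brightest probe set. No paired analysis was possible because each cell type has 1 array. Single probe sets were used for the counts and medians only. Dim members are limited by signal over background, which the deposited values do not give.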
